A study of Mus musculus with 7 samples.

Results

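The 10 genes of the blood vessel wall described here were followed in livers of mice that carry a mutation in Sox17: the 3 SoxF transcription factors Sox17, Sox7 and Sox18, the 5 pan-endothelial genes Kdr, Flt1, Tek, Cdh5 and Pecam1, and the tip cell genes Esm1 and Apln. They are 10 of the 36492 gene names on the arrays, and every probe that carries 1 of these names was taken, which gave 12 of 55681 probes and 22 spots per array. Esm1 was chosen by its own values, because it is high in SHIVA livers on these same arrays, so its values are a description and carry no test. WT mice were C57BL/6, and SHIVA mice carried on the same background a dominant mutation, induced with the mutagen ENU and present in 1 copy, that replaces a methionine by an arginine in the DNA-binding HMG domain of Sox17. The mutation is present in every cell of the mouse and all SHIVA mice descend from 1 mutant line. All mice were female, 8 to 12 weeks old and fasted for 24 h, and no fed liver was on these arrays. RNA of the whole liver of 3 WT and 4 SHIVA mice was hybridized to single-colour Agilent arrays, 1 array per mouse.

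SoxF factors bind DNA through their HMG domain and act, partly in place of each other, in the endothelium of arteries, veins and lymphatic vessels. Kdr and Flt1 are receptors for vascular endothelial growth factor (VEGF), Tek is the receptor for angiopoietins, Cdh5 is the cadherin of endothelial junctions and Pecam1 an adhesion molecule of the same junctions. Esm1 encodes endocan, a secreted proteoglycan, and with Apln, the peptide ligand of the apelin receptor, it marks endothelial tip cells, the cells at the front of a growing vessel that respond to VEGF. In the liver most endothelial cells line the sinusoids.

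The probes on which the results turn are shown by the beginning of their sequence, 30 bases for those that lie near the 3′ end of a transcript and all 60 bases for the brighter Kdr probe. They are written 5′ to 3′ in the sense of the transcript, and capitals mark runs of at least 4 equal bases. Positions are those of the stretch printed, in mm9.
Esm1, chr13:114008204-114008233, plus strand: aatgtactcgtgggaagatccgtgaatgta
Sox17, brighter probe, chr1:4481533-4481562, minus strand: ctcactgacttattccatttcttgaaagtg
Sox17, dimmer probe, chr1:4481068-4481097, minus strand: cccacttcccacAAAAtttgcctttaattc
Kdr, brighter probe, chr5:76330395-76330454, minus strand: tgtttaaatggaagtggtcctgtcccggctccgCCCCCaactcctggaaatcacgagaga
Kdr, dimmer probe, chr5:76329339-76329368, minus strand: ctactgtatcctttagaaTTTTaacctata
Both Sox17 probes hybridize to the end of the mRNA, outside the mutated codon, so they read the summed message of both alleles and check neither the mutation nor the label. The G and C content was 55% in the brighter Kdr probe and 35% in the dimmer one.

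The promoter windows used here, from RefSeq (GRCm38.p6), cover 5 of the 10 genes, namely Esm1, Kdr, Flt1, Tek and Apln. The core of the Sox binding motif, ACAAT, searched on both strands in the 250 bases before the start, was present in Tek only, at 2 places, and 27.7% of all 32851 promoter windows hold it. The longer form AACAAT, which contains the core, was found once in Tek and in 9.4% of all windows. The 250 bases before the Esm1 start (chr13:113209409-113209658, plus strand) are shown because Esm1 differs most among these genes. Capitals mark GGAA or its reverse, TTCC, the core of the sites bound by ETS factors of the endothelium, which occurs 3 times here and at least once in 93.4% of all windows.
Esm1 promoter: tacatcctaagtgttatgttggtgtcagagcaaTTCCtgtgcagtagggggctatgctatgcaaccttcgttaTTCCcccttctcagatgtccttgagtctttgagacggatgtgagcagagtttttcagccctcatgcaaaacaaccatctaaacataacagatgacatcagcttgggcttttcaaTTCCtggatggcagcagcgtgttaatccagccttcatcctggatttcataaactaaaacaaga
The last 100 bases before the Tek start (chr4:94739189-94739288, plus strand) hold both matches to ACAAT, in capitals and in the first case as its reverse, ATTGT.
Tek promoter: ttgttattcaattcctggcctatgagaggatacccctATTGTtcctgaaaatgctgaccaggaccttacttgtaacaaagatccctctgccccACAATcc
These matches describe the letters of the windows and say nothing on whether a factor binds there.

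Probes well above background made up 44.5% to 46.3% of all probes on WT arrays and 45.8% to 48.7% on SHIVA arrays, and no spot was saturated. All arrays were on 1 slide, WT in row 1 and SHIVA in row 2, so that place on the slide and genotype cannot be told apart. The labelled tissue was checked first: Alb, the main plasma protein made by hepatocytes, was at 18.30 ± 0.06 (SD, n = 3 WT) and 18.33 ± 0.04 (SD, n = 4 SHIVA) on the log2 scale, and Cdh5, Pecam1, Kdr, Flt1 and Tek were well above background on all 7 arrays. Here and below, a log2 signal is the quantile-normalized intensity of 1 probe, and levels of different probes cannot be compared with each other. A gene was tested when its probe was above background on 3 or more arrays, and of these 20000 genes 75 differed at an adjusted p under 0.05 (limma with Benjamini-Hochberg adjustment). This is 0.375% of the genes, with 0.185% higher and 0.19% lower in SHIVA livers. The values of the 2 genotypes were fully apart in 12.2% of the genes, 6.14% higher and 6.02% lower in SHIVA.

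**Figure D1:**
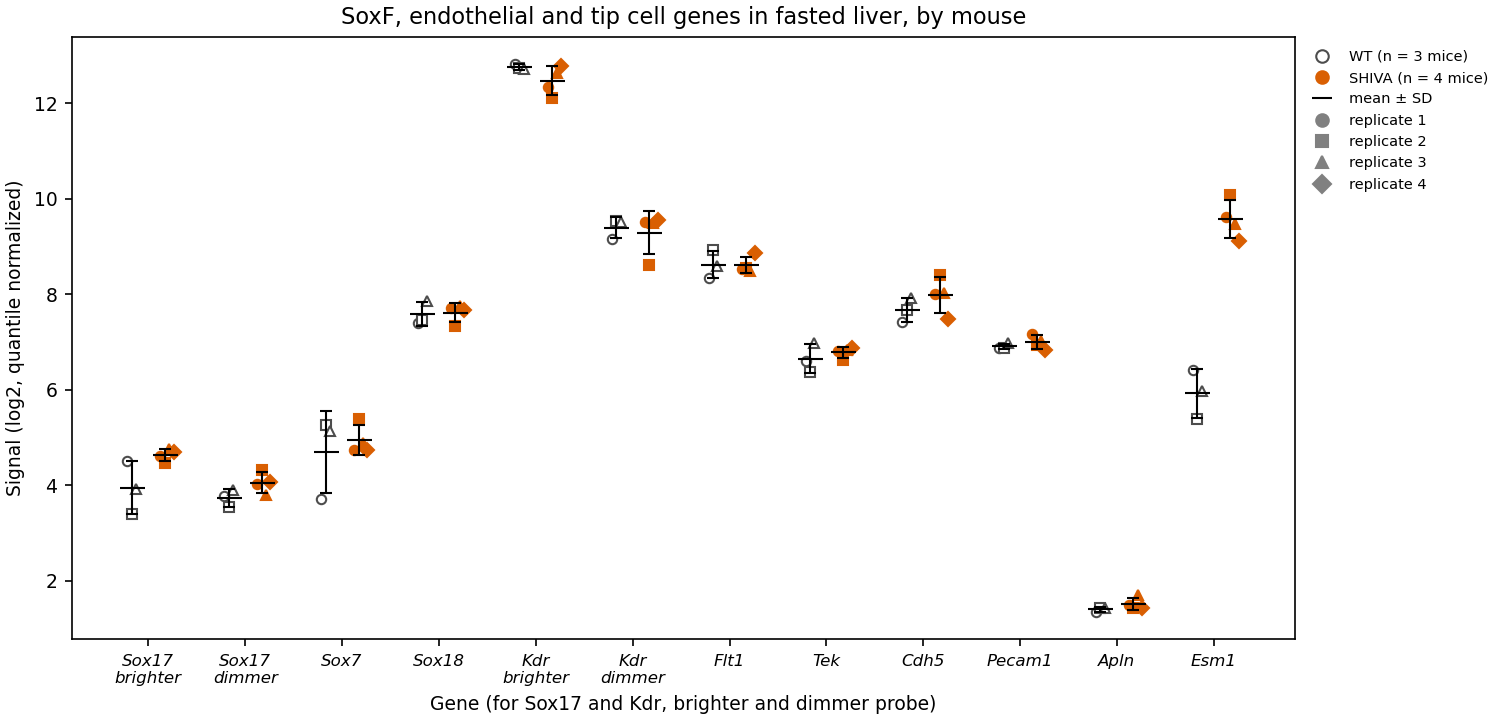
Log2 signal (quantile normalized, vertical axis) of each probe of the SoxF, endothelial and tip cell genes (horizontal axis) in 3 WT livers (open symbols) and 4 SHIVA livers (orange), 1 symbol per mouse, with the mean and SD as black bars. The genotypes are apart for Esm1, between 5.39 and 6.41 in WT and between 9.12 and 10.09 in SHIVA, and overlap for all other genes that were tested. Heights of different probes cannot be compared.

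The SoxF genes overlapped between genotypes. Sox17, the mutated gene, had with its brighter probe log2 signals of 4.52, 3.41 and 3.92 in WT livers and of 4.62, 4.46, 4.76 and 4.70 in SHIVA livers. WT replicate 1 lay within the SHIVA range, the other two WT livers lay below it, and the SHIVA livers were close together. The probe was well above background on 2 of 3 WT and on 4 of 4 SHIVA arrays. The means were 3.95 ± 0.56 (SD, n = 3 WT) and 4.64 ± 0.13 (SD, n = 4 SHIVA), a log2 fold change of SHIVA over WT of 0.69 (standard error, SE, 0.25; adjusted p = 0.279, limma). The dimmer Sox17 probe gave 3.74 ± 0.19 and 4.06 ± 0.22, a difference of 0.31 in the same direction, and its genotypes overlapped as well. Sox17 lies near the background, and its log2 fold change was 0.09 with normexp background correction.

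Sox7 had log2 signals of 3.72, 5.27 and 5.13 in WT and of 4.75, 5.40, 4.89 and 4.74 in SHIVA livers. WT replicate 1 was the lowest of all mice, and the other two WT livers lay inside the SHIVA range. The log2 fold change was 0.24 (SE 0.37, adjusted p = 0.83, limma), and without WT replicate 1 it was -0.25. Sox18 had log2 signals of 7.41, 7.47 and 7.87 in WT and of 7.71, 7.33, 7.76 and 7.68 in SHIVA livers. Its log2 fold change was 0.04, with a 95% confidence interval from -0.36 to 0.44 (adjusted p = 0.952, limma). Of the SoxF genes Sox7 thus had the widest interval, from -0.60 to 1.07, and none passed the test.

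The pan-endothelial genes overlapped between genotypes as well. Kdr, the main VEGF receptor of endothelium, had with its brighter probe log2 signals of 12.82, 12.74 and 12.72 in WT and of 12.34, 12.11, 12.64 and 12.79 in SHIVA livers. SHIVA replicate 4 reached the WT range and the other SHIVA livers lay below it. The log2 fold change was -0.29 (SE 0.19, adjusted p = 0.554, limma). The dimmer Kdr probe, printed as 10 spots on each array, read 9.15, 9.53 and 9.52 in WT and 9.51, 8.62, 9.50 and 9.55 in SHIVA livers, a difference of -0.11. SHIVA replicate 2 was the lowest mouse with both probes. The SD over the 10 spots of an array was between 0.03 and 0.11, and the SD over mice with this probe was 0.21 in WT and 0.45 in SHIVA.

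Flt1, a VEGF receptor that also acts as a decoy, had means of 8.63 ± 0.29 (SD, n = 3 WT) and 8.62 ± 0.17 (SD, n = 4 SHIVA). Its values were 8.35, 8.92 and 8.60 against 8.54, 8.56, 8.50 and 8.87, so that the SHIVA livers lay within the WT range. Tek had values of 6.60, 6.38 and 6.99 in WT and of 6.81, 6.62, 6.84 and 6.87 in SHIVA livers, again with all SHIVA livers inside the WT range. The log2 fold change was -0.01 for Flt1 (interval from -0.42 to 0.40, adjusted p = 0.991) and 0.13 for Tek (interval from -0.27 to 0.53, adjusted p = 0.799), both from limma.

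Cdh5 had values of 7.42, 7.68 and 7.92 in WT and of 8.01, 8.40, 8.03 and 7.48 in SHIVA livers. SHIVA replicates 1, 2 and 3 were above all WT livers and SHIVA replicate 4 was close to the lowest. The log2 fold change was 0.31 (SE 0.23, adjusted p = 0.616, limma). Pecam1 was within 6.88 and 6.98 in WT livers and within 6.83 and 7.18 in SHIVA livers, and its log2 fold change was 0.08 (SE 0.14, adjusted p = 0.849, limma). Its interval, from -0.24 to 0.40, was the narrowest among these genes.

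Over the 8 genes tested besides Esm1, 0 were called, where 0.375% of all genes were, and 0 had genotypes that did not overlap, where 12.2% of all genes did not. Of these, 6 had a log2 fold change above 0, which held for 48.8% of all genes tested. Without adjustment, 2668 genes (13.3%) had a limma p under 0.05, and among these 8 genes Sox17 alone did.

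**Figure D2:**
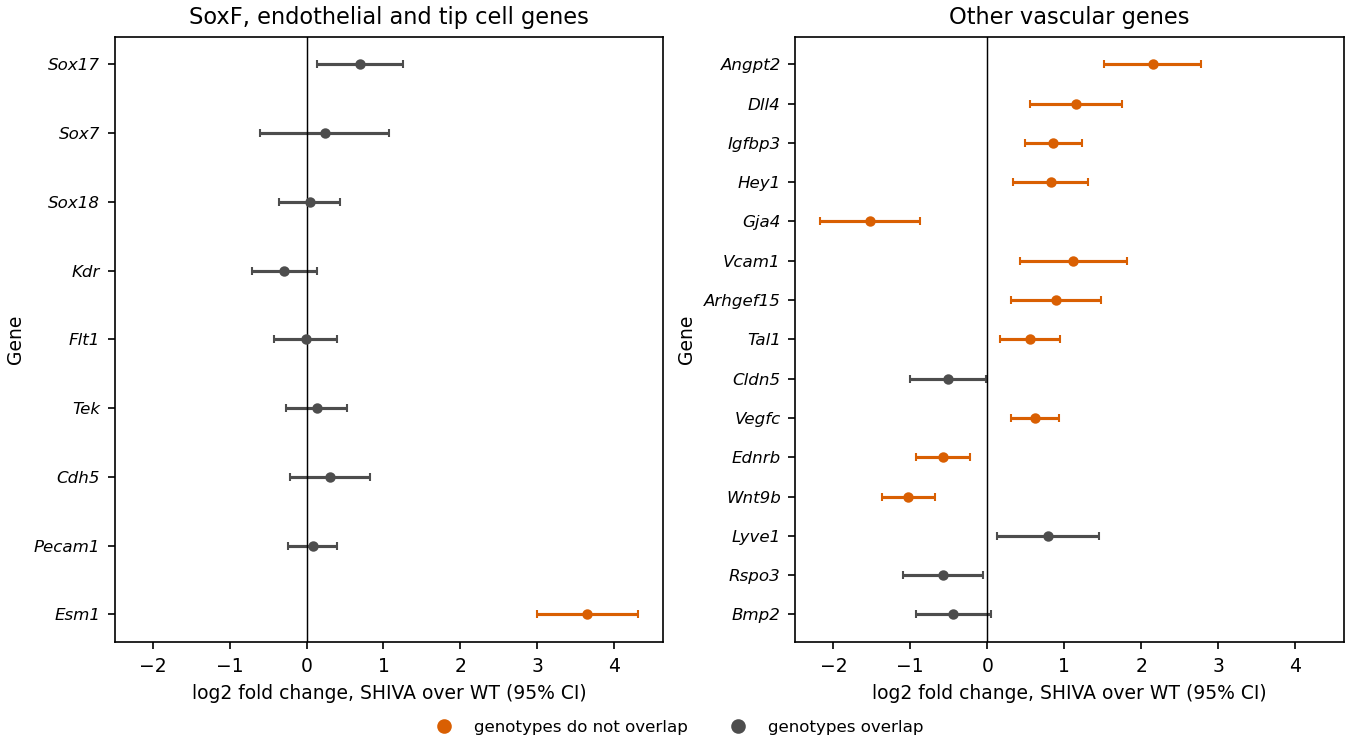
Log2 fold change of SHIVA over WT (horizontal axis) with its 95% confidence interval from limma, not adjusted for the number of genes, for the genes followed here (left) and for other vascular genes (right). Orange marks genes whose genotypes do not overlap. On the left this is Esm1 alone, at 3.65, and on the right Angpt2 is highest at 2.15 and Gja4 lowest at -1.52. Esm1 was chosen for its rise on these arrays, so its interval is a description and no test.

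Of the tip cell genes, Esm1 was higher in all SHIVA livers and Apln was under the limit of the arrays. Esm1 had log2 signals of 6.41, 5.39 and 5.98 in WT livers and of 9.61, 10.09, 9.47 and 9.12 in SHIVA livers. Every SHIVA liver was above every WT liver, and the gap between the groups was wider than the range within either. On the scanner's linear scale, before normalization, the processed intensity was 77.8, 36.8 and 60.5 in WT and 853, 1249, 710 and 538 in SHIVA livers. The probe was well above background on all 7 arrays. The means were 5.93 ± 0.51 (SD, n = 3 WT) and 9.57 ± 0.40 (SD, n = 4 SHIVA), a log2 fold change of 3.65 (SE 0.29), or 12.6-fold. The size depends on the treatment of the background: the log2 fold change was 3.06 with the mean signal taken without background correction and 2.70 with normexp. Apln was not well above background on any array, with log2 values between 1.35 and 1.43 in WT and between 1.43 and 1.71 in SHIVA livers, and no fold is given.

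The difference in Esm1 was set beside the endothelial genes of the same livers. In bulk liver RNA, fewer cells of a type and less RNA per cell cannot be told apart. The mean log2 signal of 36 endothelial genes, the 5 above and 31 more, was 8.30, 8.23 and 8.30 in WT and 8.41, 8.49, 8.42 and 8.33 in SHIVA livers, all slightly higher in SHIVA. The difference between Esm1 and this mean was -1.89, -2.83 and -2.32 in WT and 1.20, 1.60, 1.05 and 0.80 in SHIVA livers.

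Of the 31 other pan-endothelial genes tested, 0 were called, beside 0.375% of all genes. The median log2 fold change was 0.14 against -0.00742 for all genes. In 5 the genotypes did not overlap, all higher in SHIVA livers, beside 6.14% of all genes. Erg and Sele were listed too but did not pass the filter. Vcam1, an adhesion molecule for leukocytes, had the largest fold change, 1.12 (SE 0.31, adjusted p = 0.195), followed by 0.90 for Arhgef15 and 0.55 for Tal1, a transcription factor of blood and endothelium. With the brightest probe the genotypes did not overlap for these. A dimmer Vcam1 probe differed by 0.61, and its genotypes overlapped. A dimmer Arhgef15 probe was well above background on 1 SHIVA array only, and its genotypes overlapped as well. Cldn5, a claudin of tight junctions, had the lowest, -0.51, with overlap.

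Genes of tip cells and arteries were next to Esm1 in function. Of 18 tested, 15 had a log2 fold change above 0, beside 48.8% of all genes. In 6 the genotypes did not overlap with SHIVA higher, beside 6.14% of all genes, and in 2 with SHIVA lower, beside 6.02%. The median was 0.33, and 1 gene was called, beside 0.375% of all genes. The gene called was Angpt2, an angiopoietin of activated endothelium that can oppose Angpt1 at the receptor Tek. It had log2 signals of 3.44, 4.15 and 4.27 in WT and of 6.37, 6.17, 6.35 and 5.52 in SHIVA livers. The lowest SHIVA liver was thus more than 1 log2 unit above the highest WT liver. The log2 fold change was 2.15 (SE 0.27, adjusted p = 0.0269, limma), and the probe was well above background on 2 of 3 WT arrays. The call was lost with normexp (log2 fold change 0.73, adjusted p = 0.0579), and it held in 3 of 7 fits with single mice left out: the adjusted p was 0.107 without WT replicate 1, 0.112 without WT replicate 2, 0.0769 without SHIVA replicate 1 and 0.0676 without SHIVA replicate 3 (limma). Over the alternatives its adjusted p was between 0.00964 and 0.192.

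**Figure D3:**
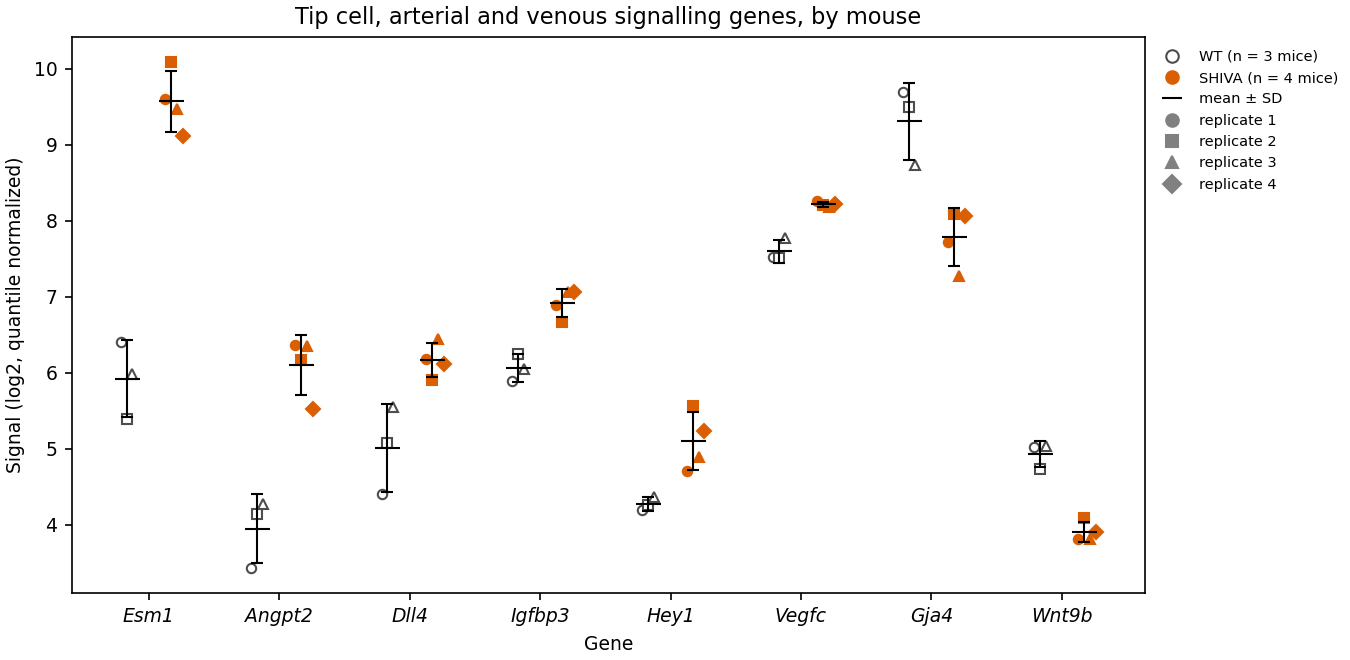
Log2 signal (quantile normalized, vertical axis) of Esm1 and 7 other vascular genes (horizontal axis) in 3 WT livers (open symbols) and 4 SHIVA livers (orange), 1 symbol per mouse, with the mean and SD as black bars. For all 8 genes the genotypes are apart: SHIVA livers are higher for the first 6 and lower for Gja4 and Wnt9b. Heights of different probes cannot be compared.

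Dll4, the Notch ligand of tip cells and arteries, was 4.41, 5.08 and 5.55 in WT and 6.19, 5.91, 6.45 and 6.12 in SHIVA livers, which is a log2 difference of 1.15 (SE 0.26, adjusted p = 0.135, limma). Hey1, a target of Notch, had a log2 fold change of 0.83 (adjusted p = 0.177, limma) and Igfbp3, a binding protein of insulin-like growth factors, of 0.86 (adjusted p = 0.083, limma). Gja4, the connexin of arterial endothelium, went the other way, with 9.70, 9.50 and 8.74 in WT and 7.72, 8.09, 7.27 and 8.07 in SHIVA livers. Its log2 fold change was -1.52 (SE 0.28, adjusted p = 0.0774, limma). These 4 genes did not overlap between genotypes and did not pass the test as set. Gja4 passed in 5 of 17 alternatives, with an adjusted p of 0.031 for the mean signal, 0.0307 for the authors' table, 0.0478 for the filter on all 7 arrays, 0.0203 with array weights and 0.0222 without WT replicate 3 (limma). Dll4 passed with array weights (adjusted p = 0.0353) and without WT replicate 3 (0.0338), and Igfbp3 with array weights (0.0338). Aplnr, the receptor of Apln, was not well above background on any array.

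Among ligands and secreted factors of vessels, together with the endothelin receptor Ednrb, 9 genes were tested, with a median of 0.35. Angpt2 was the 1 gene called, beside 0.375% of all genes. In 3 the genotypes did not overlap with SHIVA higher, beside 6.14% of all genes, and in 2 with SHIVA lower, beside 6.02%. Vegfc, a ligand of Flt4 and Kdr, was between 7.51 and 7.77 in WT and between 8.18 and 8.26 in SHIVA livers, which is a log2 difference of 0.62 (SE 0.13, adjusted p = 0.124, limma). Angptl4, an inhibitor of lipoprotein lipase, had a log2 fold change of -0.61 and Ednrb of -0.58, both without overlap. Which cells of the liver gave the signals of these genes cannot be told from RNA of the whole liver.

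Markers of sinusoidal endothelium had a median of -0.05 over 17 genes tested, 7 of them above 0, beside 48.8% of all genes. Wnt2, Cd209b and Mmrn1 were listed too but did not pass the filter. Of all genes 0.375% were called and 12.2% did not overlap. In this list the 1 gene called, and the 1 gene without overlap, was Wnt9b, a Wnt ligand that endothelial cells of the central vein send to hepatocytes. It had 5.02, 4.73 and 5.04 in WT and 3.81, 4.09, 3.81 and 3.91 in SHIVA livers. The probe was well above background on 3 of 3 WT and 3 of 4 SHIVA arrays. The log2 fold change was -1.03 (SE 0.15, adjusted p = 0.0389, limma). It was -0.36 with the mean signal without background correction (adjusted p = 0.193) and -0.20 with normexp (adjusted p = 0.299), and over the alternatives its adjusted p was between 0.0132 and 0.299. With single mice left out it held without WT replicate 3 or SHIVA replicate 2, and the adjusted p was 0.17 without WT replicate 1, 0.116 without WT replicate 2, 0.122, 0.115 and 0.0657 without SHIVA replicates 1, 3 and 4 (limma). Lyve1, a hyaluronan receptor of sinusoids and lymphatic vessels, had a log2 fold change of 0.79, Rspo3, which strengthens Wnt signals, of -0.57 and Bmp2, which induces hepcidin in hepatocytes, of -0.44, all with overlap.

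The list of 13 genes linked to SoxF factors in vessels, gut and liver had a median of 0.25. Of these 0 were called, beside 0.375% of all genes. In 4, namely Dll4, Vcam1, Hey1 and Lama1 (0.82), the genotypes did not overlap with SHIVA higher, beside 6.14% of all genes. In 1 they did not overlap with SHIVA lower, beside 6.02%. Besides Dll4, Vcam1 and Hey1, the largest difference was that of Mmp7, a matrix protease, with a value of -2.15 (SE 0.49, adjusted p = 0.132, limma) and no overlap. Its probe was well above background on 3 of 4 SHIVA arrays, and over the alternatives its log2 fold change was between -2.69 and -0.83. Of 17 other Sox genes 9 were tested, with a median of -0.07. In this list 0 were called, beside 0.375% of all genes, and 0 were without overlap, beside 12.2%. Sox9, the factor of bile ducts, had the largest fold change among them, 0.60, and Sox4 had 0.39 with its brightest probe. The other Sox4 probes, also well above background on all 7 arrays, gave 0.11 and -0.30.

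Genes that respond to hypoxia, Vegfa among them, had a median of 0.08 over 14 tested, with 0 called, beside 0.375% of all genes. Ankrd37 was between 3.74 and 4.01 in WT and between 4.72 and 5.76 in SHIVA livers, which is a log2 difference of 1.50 (SE 0.25, adjusted p = 0.0593, limma). It passed in 5 of 17 alternatives, with an adjusted p of 0.0362 for the filter on all 7 arrays, 0.0188 with array weights, 0.0493 with the replicate block, 0.0459 without WT replicate 3 and 0.0233 without SHIVA replicate 4 (limma), and with normexp its log2 fold change was 0.49. Egln3, an oxygen-dependent hydroxylase, had 0.59 without overlap, while Higd1a and Bnip3, both mitochondrial, had -0.58 and -0.57 with overlap. Pdk1 had -0.5 without overlap. In this list the genotypes did not overlap with SHIVA higher in 2 genes, beside 6.14% of all genes, and with SHIVA lower in 1, beside 6.02%.

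**Figure D4:**
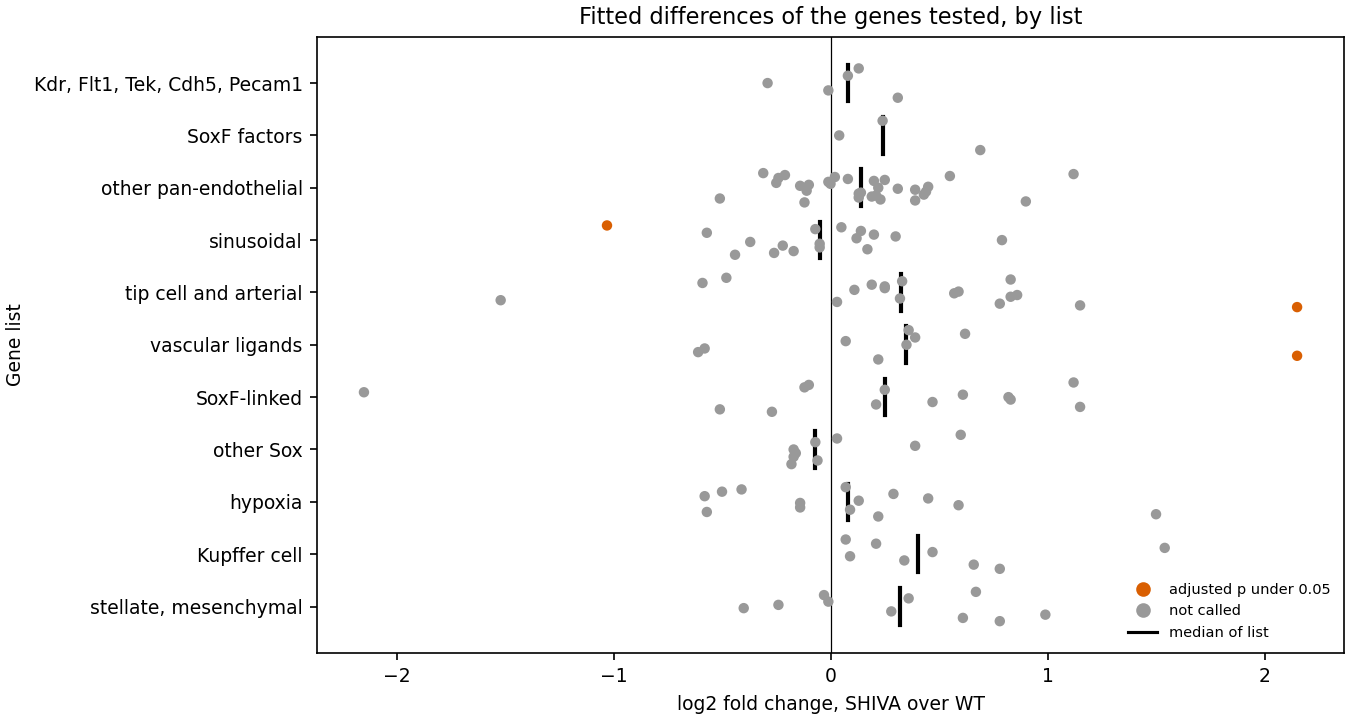
Log2 fold change of SHIVA over WT (horizontal axis) of each gene tested, by gene list (vertical axis), with the median of a list as a black bar and genes at an adjusted p under 0.05 in orange. Esm1 is not drawn. Medians are 0.33 for tip cell and arterial genes, -0.05 for sinusoidal and 0.41 for Kupffer cell genes. Angpt2 appears in 2 lists.

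Markers of other cells of the liver were compared beside the endothelial values, and their part in these was not tested. All 8 Kupffer cell markers had a log2 fold change above 0, beside 48.8% of all genes, and their median was 0.41. Of these 0 were called, beside 0.375% of all genes, and 0 were without overlap, beside 12.2%. Averaged over the list, the log2 signal lay between 9.58 and 10.77 in WT and between 10.12 and 11.12 in SHIVA livers. Marco, a scavenger receptor, had 1.54 and Clec4f, the lectin that defines these cells in mice, 0.09. Stellate and mesenchymal markers had a median of 0.32 over 10 genes. Without overlap, 3 were higher in SHIVA, beside 6.14% of all genes, and 1 was lower, beside 6.02%. Col3a1, a fibrillar collagen, had the largest value, 0.99 with overlap. Acta2, the actin of smooth muscle, had 0.78 and Rgs5, a pericyte gene, 0.67, both without overlap, while Lrat, which defines stellate cells, had -0.01. Hepatocyte markers had a median of 0.04 over 7 genes and leukocyte markers one of 0.58 over 7, which was 0.14 without WT replicate 3 and 0.19 without WT replicate 2. Bile duct markers had a median of -0.64 over 4 genes, -0.29 without WT replicate 3 and -0.97 without WT replicate 2. The keratins Krt7 and Krt19 had -0.81 and -0.73 and Spp1 had -0.55, while Sox9 had 0.60, all with overlap. Lymphatic markers had a median of 0.37 over 4 genes, with 0.79 for Lyve1, -0.05 for Flt4 and -0.10 for Prox1, all with overlap. Lyve1 and Flt4 are in the sinusoidal list as well, so this median does not read lymphatic vessels alone. Ccl21a, a chemokine of lymphatic vessels, had the largest value, 1.26 without overlap (adjusted p = 0.0734, limma), and passed in 3 alternatives: the mean signal (adjusted p = 0.0352), the authors' table (0.0339) and the filter on all 7 arrays (0.0469). Erythroid markers had a median of 0.43 over 3 genes, with 0.63 for Alas2, an enzyme of heme synthesis. In none of these lists was a gene called. Of the adipose markers only Cidec passed the filter, and Plin1 and Lep were not above background on any array.

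The genes whose log2 signal followed that of Esm1 most closely over the 7 arrays, of 19958 ranked, were Ftcd (Pearson r 0.990), Nr3c1 (0.988), Tmprss4 (0.985), Bex2 (0.985) and Gm7172 (0.984). Such an r reflects the difference between genotypes as well as that between mice. Esm1 was chosen by its rise in SHIVA livers, so genes picked by likeness to it differ between genotypes through that choice. No test is given for them. Tmprss4, a membrane serine protease, differed by a log2 value of 3.83 (SE 0.32), with 1 of 3 WT arrays above background. Its log2 fold change was 1.62 with normexp. Bex2 was above background on 0 of 3 WT and 4 of 4 SHIVA arrays, so it passed the filter through SHIVA livers alone. With its WT values raised at least to the dimmest signal above background on each array, its mean signal was 1.55-fold higher in SHIVA. This value carries no interval and is no lower limit, since the log2 fold change was 0.32 with normexp. Ftcd and Nr3c1, the glucocorticoid receptor, differed by only 0.41 and 0.23.

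To leave out the genotype, Cdh5 was followed over the deviations of the 7 mice from their genotype means. The closest genes were Ms4a6d (r 0.993), Bin2 (0.990), an unnamed intergenic transcript of chromosome 12 (0.985), Nod1 (0.984) and Pcdh18 (0.983). They are the highest of 19958 coefficients, each from few mice, and no test is given for them. Pcdh18 was above background on 0 of 3 WT and 3 of 4 SHIVA arrays, so it passed the filter through SHIVA livers alone. Among the genes followed here r with Cdh5 was 0.649 for Sox7, 0.453 for Pecam1 and 0.439 for Esm1. It was near 0 for Tek (-0.025) and Sox18 (-0.072), and negative for Flt1 (-0.251), Sox17 (-0.42) and Kdr (-0.837). With genotype means removed from so few mice, such coefficients are imprecise. Whether the endothelial genes move together from mouse to mouse was not tested. Kdr was read by its brighter probe, and Sox17 lies near the background. These coefficients describe 7 arrays that share 1 slide.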

How the data were processed

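Each of the 7 livers was hybridized to an array of its own, and replicates are separate mice. The authors deposited the scanner intensity of each spot from Agilent Feature Extraction 10.5.1.1, which detrends spots for place and for multiplicative effects, leaves the local background in and replaces low signals by surrogates, and a table of log2 values that the authors quantile normalized. Probe positions in the files are those of mm9.

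Spots marked as uneven or deviant, 120 to 163 per array, were left out. In R 4.3.3, limma 3.58.1 quantile normalized the log2 processed intensities, and spots of 1 probe were averaged. A gene was read by its brightest probe on average. Genes well above background on at least 3 arrays were tested by limma with empirical Bayes, two-sided, with calls made under 0.05 after Benjamini-Hochberg adjustment. The steps were tested on simulated data. The number of arrays limits the precision.

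The genes followed, the lists and the tests were chosen with earlier results of these data known. Genes were named from a set made of all genes followed, each list's called genes and those with the largest fold change, up to 4 per list, the first genes of each cell type list and the 5 genes most like Esm1 or Cdh5. Alternatives were another scaling, background correction, filter, choice of probe, the deposited table, array weights, a replicate block, the methods' t-test on the same values and leaving out each mouse.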

Additional observations from a re-analysis of the deposited data

Results flagged for a closer look

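Of 92 groups of 4 SHIVA livers searched for 1 mouse far from the other 3 by Dixon's test, 5 stood out, where chance alone gives about 4.6. With the dimmer Kdr probe SHIVA replicate 2 had a log2 signal of 8.62, the others between 9.50 and 9.55. In SHIVA replicate 4 the neutrophil granule genes S100a9 and S100a8 had log2 signals of 7.62 and 5.25, where the others had between 10.31 and 10.40 and between 7.78 and 8.12. The mean log2 signal of the leukocyte markers was 7.02 in the same mouse, the others lying between 7.83 and 7.97. The mean of the erythroid markers was 11.16 in SHIVA replicate 3, with the others between 10.63 and 10.68. SHIVA replicate 4 also had the lowest Esm1, Angpt2 and Cdh5 among SHIVA livers, and without it the log2 fold changes were 3.79, 2.35 and 0.48. The part of the leukocyte genes in these values was not tested.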

How the results depend on the processing

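The number of genes called moved most: 141 with the mean signal without background correction and with the authors' table, 13 without a filter on dim probes, 392 with array weights, 32 with the replicate block, 0 after adjustment with the methods' t-test (2299 at an unadjusted p under 0.05), and 3 to 423 with single mice left out, 3 without WT replicate 1, 8 without WT replicate 2, 7 without SHIVA replicate 1, 13 without SHIVA replicate 3 and 423 without WT replicate 3. Of the 8 genes tested besides Esm1, 0 were called under any of these. Esm1 had 3.06 with the mean signal, 2.70 with normexp and 3.06 with the authors' table, and 3.37 to 3.89 with single mice left out. Of 137 values of the other 8 genes 13 changed sign, all in Sox7, Sox18, Flt1 and Tek. Sox7 had -0.08 with array weights, and Flt1 had 0.003 with the mean signal, 4e-04 with normexp and 0.01 with the authors' table. With single mice left out Sox7 was between -0.25 and 0.52, Sox18 between -0.05 and 0.18, Flt1 between -0.14 and 0.14 and Tek between -0.01 and 0.30. Among other genes, signs changed for Alb (-0.10 with scaling to the 75th percentile, -0.02 with array weights), Reln (0.03 with the mean signal, normexp and the authors' table), Prox1 (0.04 with array weights) and Flt4 (0.02, 0.03 and 0.02 with these 3 backgrounds, 0.14 with array weights). Left-out mice gave -0.05 to 0.33 for Cps1, -0.12 to 0.33 for Clec4f, -0.29 to 0.20 for Lrat, -0.36 to 0.29 for Reln, -0.21 to 0.08 for Prox1 and -0.30 to 0.13 for Flt4. The median of sinusoidal genes was 0.02, 0.01 and 0.02 with the mean signal, normexp and the authors' table and -0.19 to 0.10 with left-out mice. That of tip cell and arterial genes was 0.16 with normexp. That of vessel ligands was 0.18, 0.13 and 0.18 with the same 3, 0.15 without a filter, 0.22 with the filter on all 7 arrays, 0.26 with array weights and 0.19 to 0.38 with left-out mice. The median of SoxF-linked genes was 0.20 to 0.44 with left-out mice, of hepatocyte genes -0.08 with scaling to the 75th percentile and of lymphatic genes -0.05 without a filter. The cause of these moves was not tested.

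Mice share only a replicate number: deviations of same-numbered mice correlated with -0.049, 0.013 and 0.236. With the replicate block 32 genes were called, 16 of them among the 75. Angpt2 kept its call (adjusted p = 0.0474, limma), Wnt9b lost its call (adjusted p = 0.137, limma) and Ankrd37 gained one (adjusted p = 0.0493, limma). Lrat had 0.02 and Flt4 0.13. Sox17 and Apln are close to or under the background, where small differences cannot be detected.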
